A study of Homo sapiens with 2 samples.

Results

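UTX and TAL1 peaks were examined in the HIST1 cluster of chromosome 6, the largest array of replication-dependent histone genes in the human genome. The members were chosen by where peaks had been called: every peak of the UTX list or the TAL1 list with at least 1 base in hg19 chr6:26000000-26300000 or chr6:27750000-27900000, called the first and the second window here. They were 42 of the 20074 peaks of both lists. All 42 were UTX peaks, of 17396 in the UTX list, and 0 were TAL1 peaks, of 2678 in the TAL1 list. The first window held 23 UTX peaks and the second held 19. The interval from 26300001 to 27749999 between the windows, which held 22 UTX peaks and 1 TAL1 peak, served as the comparison.

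The UTX list came from 1 chromatin immunoprecipitation (ChIP-seq) library of untreated Jurkat cells, an established line of T cell acute lymphoblastic leukaemia (T-ALL), made with a mix of UTX antibodies (home made 9838P and A302-374A). A mock library from the same line, made with an isotype IgG, was not analysed here. The TAL1 list was taken by the submitters from an earlier study, and the series set both lists side by side to see where they coincide. With 1 library per protein there are no replicates, and a single cell line stands for the disease. Each list gives positions only, so the read depth is unknown and the width of a peak is the only measure of its size. No test was made on the members, because their positions chose them and no replicate exists. Shares carry 95% exact (Clopper-Pearson) binomial intervals, which cover counting of peaks only.

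Replication-dependent histone genes encode the linker histone H1 and the core histones H2A, H2B, H3 and H4, which package newly copied DNA. They are transcribed mainly in S phase and lack introns, and their transcripts end in a stem-loop instead of a poly(A) tail. Many H2A and H2B genes are arranged head to head and share 1 promoter. UTX (KDM6A) is a demethylase of lysine 27 on histone H3, so the cluster encodes, among others, the protein that this enzyme acts on. TAL1 is a basic helix-loop-helix factor that binds E-boxes, short sites of the form CANNTG.

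Histone genes were taken by symbol, which does not show that each is replication-dependent. RefSeq (GRCh38.p14) lists 55 of them on chromosome 6: 6 for H1, 12 for H2A, 15 for H2B, 10 for H3 and 12 for H4. Their order along the chromosome is known, but the peak positions follow hg19, an annotation of which was not used, so no peak is assigned to a gene and the label of the windows was not checked against genes. In that order a run of 9 histone genes from H1-1 to H1-2 and a run of 23 ending at H4C8 are separated by 1 protein-coding gene of another family. After H4C8 come 9 other protein-coding genes, which start with the butyrophilin gene BTN3A2, and 47 tRNA genes. A smaller run of 5 histone genes follows, from H2BC11 to H2AC12. Next come 5 other protein-coding genes, the protease gene PRSS16 first, and 51 tRNA genes, and the last run holds 16 histone genes from H2BC13 to H2BC17. A separate pair, H2AC1 and H2BC1, precedes all of these runs. Many of these genes are close copies of one another, and the sources used here do not say how reads with several possible positions were placed.

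Promoters of the cluster's genes are shown to let a reader see what kind of sequence these genes carry. The sequence below the peaks was not used. Each entry gives the 250 bases before the start of a gene, from RefSeq (GRCh38.p14), and the coordinates are of that build and cannot be set beside the hg19 positions of the peaks. Capitals mark the CCAAT motif, the TATA motif in its form TATAAA, and the octamer known from H2B promoters, spelled ATTTGCAT. Each was marked on either strand, so the CCAAT motif also appears as its reverse complement ATTGG, and the octamer likewise.
H2AC6 (HIST1H2AC, chr6:26123922-26124171, plus strand): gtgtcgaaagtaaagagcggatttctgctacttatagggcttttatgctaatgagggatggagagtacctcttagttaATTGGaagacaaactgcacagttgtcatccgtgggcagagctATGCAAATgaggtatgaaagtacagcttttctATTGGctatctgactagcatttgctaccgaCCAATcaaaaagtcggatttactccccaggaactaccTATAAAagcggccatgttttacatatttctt
H3C1 (HIST1H3A, chr6:26020201-26020450, plus strand): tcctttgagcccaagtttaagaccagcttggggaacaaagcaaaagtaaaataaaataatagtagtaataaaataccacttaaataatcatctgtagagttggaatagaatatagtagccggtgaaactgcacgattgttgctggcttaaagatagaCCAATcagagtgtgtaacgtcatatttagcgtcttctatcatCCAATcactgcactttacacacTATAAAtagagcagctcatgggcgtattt
H1-2 (HIST1H1C, chr6:26056471-26056720, minus strand): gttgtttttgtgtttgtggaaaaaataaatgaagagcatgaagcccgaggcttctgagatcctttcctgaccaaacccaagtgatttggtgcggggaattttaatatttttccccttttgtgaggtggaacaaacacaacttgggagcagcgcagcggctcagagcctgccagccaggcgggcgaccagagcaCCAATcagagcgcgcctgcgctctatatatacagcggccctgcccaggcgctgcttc
H4C2 (HIST1H4B, chr6:26027284-26027533, minus strand): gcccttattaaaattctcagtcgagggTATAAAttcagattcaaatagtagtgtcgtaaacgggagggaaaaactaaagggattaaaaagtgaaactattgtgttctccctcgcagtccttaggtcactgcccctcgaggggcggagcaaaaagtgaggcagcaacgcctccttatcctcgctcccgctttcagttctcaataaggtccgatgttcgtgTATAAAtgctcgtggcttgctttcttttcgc

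The H2AC6 stretch holds 3 CCAAT motifs, 1 octamer and 1 TATAAA. The 300-base promoter window of its divergent neighbour H2BC4 shares 255 bases with that of H2AC6. The 300-base promoter windows (250 bases before to 50 after the start) overlapped on opposite strands in 10 gene pairs. Of these, 9 were pairs of an H2A and an H2B gene, with 253 to 293 shared bases. The remaining pair was H3C4 with H2BC7 (278 bases). H3C1, for histone H3, carries 2 CCAAT motifs and 1 TATAAA. The H1-2 stretch, for a linker histone, has 1 CCAAT. H4C2, for histone H4, holds 2 TATAAA and 0 CCAAT.

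The motifs were counted by histone type, with no test of a difference between types. Promoter windows were found for 50 of the 55 genes. The octamer was in 9 of 11 H2A promoters and 12 of 15 H2B promoters, against 2.19% of the 27305 genes in the promoter table. Many H2A and H2B windows overlap almost wholly, as given above, so the same site can be counted for both genes of a pair. The counts of these types are therefore not counts of separate sequences. A gene with more than 1 start was counted if any of its windows held the motif. The octamer was in 0 of 6 H1 and 0 of 10 H4 promoters. The 1 H3 gene with it, H3C4, has an alternative start whose window is the one of H2AC7. CCAAT was in all 40 of the H1, H2A, H2B and H3 promoters and in 3 of 10 H4 promoters, against 39.7% of all genes. TATAAA was in 8 of 11 H2A, 11 of 15 H2B, 3 of 6 H1, 6 of 8 H3 and 6 of 10 H4 promoters, or 34 of 50 (68.0%), against 14% of all genes. E-boxes CANNTG were in 38 of 50 (76.0%) against 73.1%, and the E-box CAGATG in 9 of 50 (18%) against 17.5%. These are matches of letters on either strand. In 5 of the 54 promoter windows, marked motifs overlapped one another.

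UTX peaks were dense in both windows. They numbered 76.7 per Mb in the first window and 127 per Mb in the second, or 93.3 per Mb over both, against 15.2 per Mb in the interval between and 5.87 per Mb over chromosome 6. The windows thus held 6.15 times the density of the interval, with an exact interval of 3.59 to 10.8 from counting alone. In bases covered the difference was larger, since the peaks were also wider: 7.25% of the windows lay in UTX peaks (32.6 kb of 450 kb) against 0.653% of the interval, an 11.1-fold difference, and 0.232% of the chromosome. Peak positions chose the members, so these densities are a description of the choice.

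**Figure D1:**
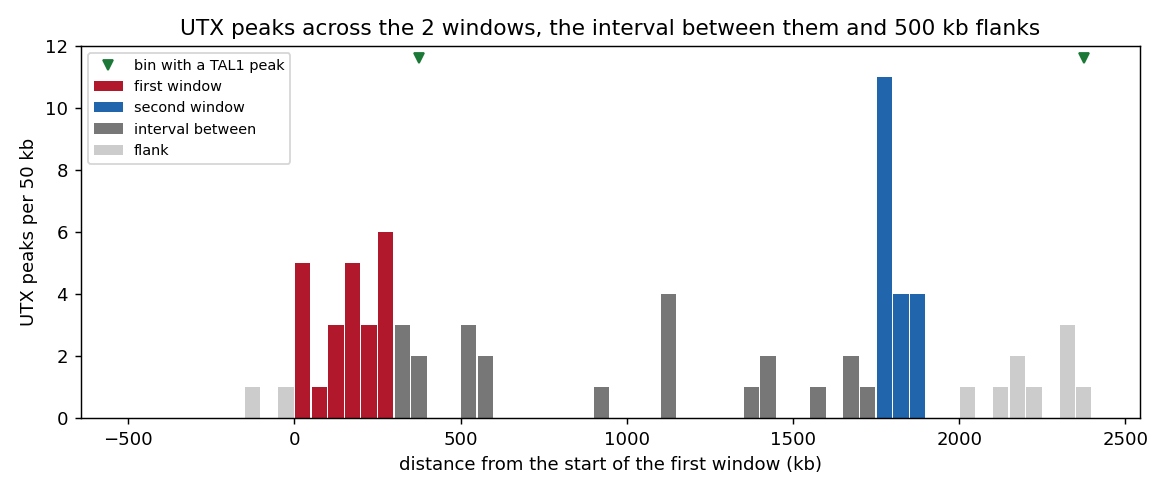
UTX peaks per 50 kb bin (vertical axis) along chromosome 6, by distance in kb from the start of the first window; colours give the windows, the interval between them and the flanks, and triangles mark bins with a TAL1 peak. All 9 bins of the windows hold UTX peaks and none holds TAL1, while 18 of the 29 bins of the interval hold no UTX peak.

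In bins of 50 kb the UTX peaks were spread through both windows, with 1 to 6 peaks per bin in the first window and 4 to 11 in the second. In the interval 11 of 29 bins held a UTX peak, with at most 4. Over the 59129 placements of a 300-kb window in 50-kb steps along the UTX list, 14 (0.0237%) held as many as the 23 peaks of the first window. These lay on chromosomes 7, 11 and 17. For the 19 peaks of the second window the count was 8 of 59160 placements of 150 kb (0.0135%), on chromosomes 7 and 10. Placements that touched either window were left out. Sparse stretches were included, and the median placement held 1 UTX peak at 300 kb and 0 at 150 kb. Neighbouring placements overlap, so these are ranks and not independent cases. Peak positions chose the members, so the ranks also describe the choice.

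The edges of both windows fell in stretches without UTX. The last UTX peak before the first window, 528 bases at 25962639 to 25963166, lay 57.4 kb from the first member at 26020587 to 26021368 (782 bases). The last member there, 249 bases at 26286623 to 26286871, was 36.1 kb from the next peak outside (292 bases at 26322972). In front of the second window the nearest outside peak (217 bases, ending at 27721356) was 42.3 kb from the first member, 197 bases at 27763619 to 27763815. Behind it the last member, 287 bases at 27870658 to 27870944, was followed by 178 kb without a UTX peak. No member touched an edge of a window.

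Widths of the members exceeded those of the list as a whole. Their median was 732 bases (exact order-statistic interval 528 to 910), against 291 bases (217 to 486) in the interval between, 330 on chromosome 6 and 320 in the whole UTX list. Of the 42 members, 34 were wider than the list's median and 28 (66.7%) were wider than its upper quartile of 457 bases. In the interval between, 10 of 22 peaks were wider than the list's median and 6 (27.3%) wider than the upper quartile.

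**Figure D2:**
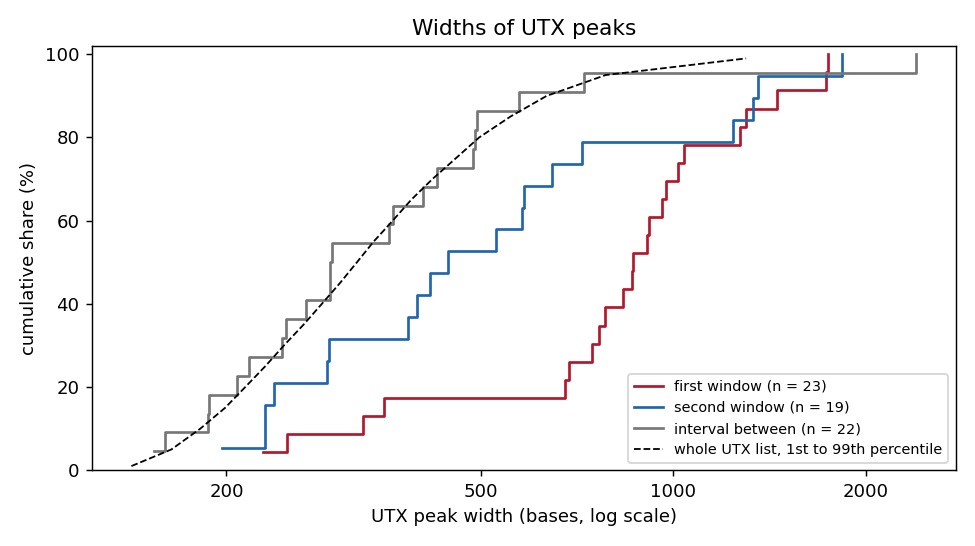
Cumulative share of UTX peaks (vertical axis, percent) against peak width in bases on a log scale, for the first window, the second window, the interval between and the whole UTX list. Over most of its length the curve of the first window, with a median of 865 bases, lies farthest to the right, and that of the interval lies near the whole list.

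Peaks over 1 kb were frequent. They made up 11 of the 42 members (26.2%, interval 13.9 to 42.0%), against 2.15% of the UTX list, and 1 of 22 in the interval (4.55%, interval 0.115 to 22.8%). Chromosome 6 held 31 UTX peaks over 1 kb in all, so the windows took 11 of these 31. The widest member, 1835 bases, ranked 75th of the 17396 UTX peaks.

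The windows differed from each other in width. The first window had the wider peaks, with a median of 865 bases (quartiles 715.5 and 1028, range 228 to 1748). Of its 23 peaks, 7 were over 1 kb. The widest, 1748 bases at 26156452 to 26158199, and the next, 1734 bases at 26055022 to 26056755, ranked 5th and 6th on the chromosome. Others over 1 kb measured 1451 bases at 26233853 to 26235303, 1299 bases at 26270430 to 26271728, 1272 bases at 26204647 to 26205918, 1038 bases at 26123163 to 26124200 and 1018 bases at 26031498 to 26032515. They were spread over the window, and 7 of its 9 groups of peaks joined across 10 kb held a single peak over 1 kb each. The narrowest, 228 bases at 26124345 to 26124572, stood beside the peak of 1038 bases.

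In the second window the peaks were denser and narrower, with a median of 445 bases (quartiles 288 and 682, range 197 to 1835). The exact order-statistic interval of that median, 287 to 719, takes in the 320 bases of the whole list. All 4 of its peaks over 1 kb lay in the right part. They measured 1334 bases at 27834091 to 27835424, 1238 bases at 27839191 to 27840428, 1359 bases at 27857578 to 27858936 and 1835 bases at 27860096 to 27861930. The last of these ranked 3rd on chromosome 6. With smaller neighbours they formed a group of 3 peaks (584 to 1334 bases) and a group of 4 (287 to 1835 bases).

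**Figure D3:**
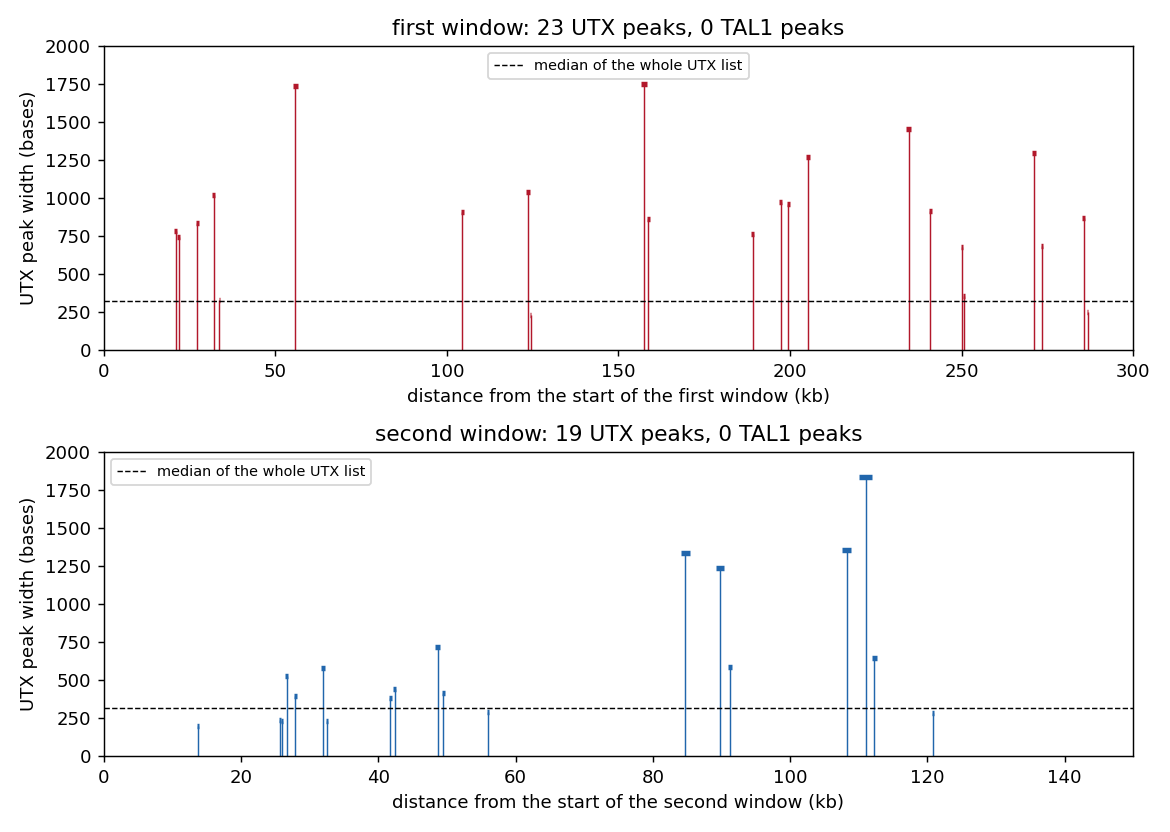
Each UTX peak of the windows, by distance from the start of its window in kb (horizontal axis) and by width in bases (vertical axis); the thick stroke at the top spans the peak and the dashed line is the median of the whole UTX list. Wide peaks stand throughout the first window, whereas in the second window the 4 peaks over 1 kb stand in the right part.

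The left part of the second window held the largest group of the cluster, 11 UTX peaks within 30.7 kb at 27775528 to 27806198. None of these peaks reached 1 kb. From left to right they measured 237, 230, 528, 397, 580, 230, 384, 445, 719, 416 and 289 bases, and together they covered 14.5% of the stretch. A single peak of 197 bases stood to their left, and 27.9 kb without UTX separated them from the wide peaks on the right. The UTX list held 5 groups of 11 or more peaks, and the other 4 each held TAL1. That cut is the size of this group itself. Of the 12 groups elsewhere with 8 or more peaks, 5 held no TAL1. Joined across 5 kb in place of 10 kb, the largest group of the windows held 6 peaks.

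In the first window the largest group was at its left end, 5 peaks within 13.3 kb at 26020587 to 26033885 with widths of 327 to 1018 bases. Groups of 4 peaks followed at 26188703 to 26205918 (766 to 1272 bases) and at 26233853 to 26250873 (353 to 1451 bases). The remaining 10 peaks stood singly or in pairs. In all, 16 of the 42 members (38.1%) were in groups of 5 or more, against 4.94% of the UTX list. Grouping rests on the same positions as the density, so this share describes the choice too. The longest empty stretches inside the first window were 47.2 kb from 26056755 to 26103993, 31.9 kb from 26124572 and 29.6 kb from 26159145.

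Many members stood in tight pairs. Of the 40 neighbouring pairs within a window, 9 (22.5%, interval 10.8 to 38.5%) were no more than 200 bases apart, against 2.92% of neighbouring pairs in the UTX list and 0 of 21 in the interval between. The first window had 4 such pairs of 22 and the second 5 of 18. The median gap between neighbours was 4.89 kb in the first window, 2.36 kb in the second, 27.7 kb in the interval and 44.7 kb in the list. Gaps rest on the same positions as the density, so the share of tight pairs is not separate from it and also describes the choice.

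**Figure D4:**
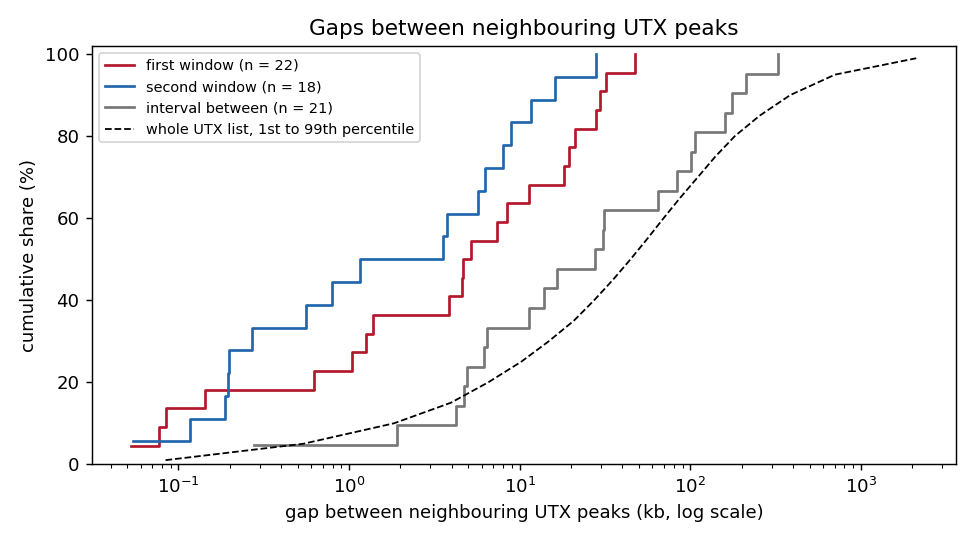
Cumulative share of neighbouring UTX peaks (vertical axis, percent) against the gap between them in kb on a log scale, for the first window, the second window, the interval between and the whole UTX list. Both windows lie to the left of the interval and the list, with steps at gaps of under 0.2 kb.

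The tight pairs joined peaks of various widths. At the left end of the first window, peaks of 782 and 745 bases were 77 bases apart, and together spanned 1604 bases from 26020587 to 26022190. The widest peak of that window was followed after 85 bases by a peak of 861 bases, a joint span of 2694 bases. Peaks of 676 and 353 bases at 26249792 to 26250873 were 53 bases apart. In the second window the peak of 1835 bases was followed after 54 bases by one of 645 bases, a joint span of 2534 bases. Of the 5 tight pairs there, 4 were in the group of 11 peaks, with gaps of 117, 187, 196 and 197 bases. After joining of UTX peaks across gaps of up to 1 kb, the 42 members became 29 stretches with a median span of 1080 bases, against 328 bases over the 16160 stretches of the list.

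TAL1 was called nowhere in the windows. Of the 42 UTX members, 0 held a TAL1 peak, against 12.1% of the UTX list and 12.5% of chromosome 6. This allows a share of up to 8.41% by the exact interval, or 7.14% by the limit of 3 counts. In the interval between the windows, 1 of 22 UTX peaks held TAL1 (4.55%, interval 0.115 to 22.8%), a range that overlaps that of the members. The windows separately gave 0 of 23 and 0 of 19. These allow shares of up to 14.8% and 17.6% by the exact interval, or 13.0% and 15.8% by the limit of 3 counts. Wide UTX peaks held TAL1 more often across the list: 5.62% of the narrowest quartile did, 19.6% of the widest quartile (458 bases and over), and 80 of the 374 peaks over 1 kb (21.4%). Of the members, 28 were in the widest quartile and 11 were over 1 kb. The limits above treat each peak as a separate draw. Members lie in only 2 windows, share their neighbourhood and are not independent, so these limits are too narrow. They are descriptions of these lists, and a depletion of TAL1 was not tested. How deeply the TAL1 library was sequenced is unknown, and a weaker TAL1 signal in the windows was not detectable from positions.

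How far the nearest TAL1 peak lay differed between the windows. The distance from a member was 74.2 to 340 kb in the first window, with a median of 172 kb, and 523 to 630 kb in the second, with a median of 595 kb. Over the UTX list the median was 162 kb and over chromosome 6 it was 186 kb, values close to that of the first window. For the UTX peaks of the interval between the windows the median was 618 kb, close to that of the second window. No member had TAL1 within 10 kb, whereas 19.3% of the UTX list did.

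The TAL1 peaks on either side frame 2 stretches. From 25056708 to 26361027, 1.30 Mb without TAL1 held 33 UTX peaks, the first window among them. From 26361275 to 28393871, 2.03 Mb held 44 UTX peaks, including the second window. Stretches at least as long made up 24.4% and 14.5% of the 2654 gaps between neighbouring TAL1 peaks, whose median was 406 kb. Gaps were counted singly, whatever their length, so these are shares of gaps and not of bases. Few gaps held as many UTX peaks: 23 gaps had 33 or more and 11 gaps had 44 or more, these stretches included, and the fullest had 99.

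The interval between the windows held 1 site with both proteins and 1 wide UTX peak. Its TAL1 peak, 249 bases at 26361027 to 26361275, was 61.0 kb beyond the first window. It lay in a UTX peak of 725 bases at 26360880 to 26361604, the second widest of the interval. Its widest UTX peak, 2400 bases at 27099537 to 27101936, was the widest on chromosome 6 and held no TAL1. Peaks of 427 and 490 bases stood to its right in a group of 3 that spanned 14.7 kb. The third widest peak of the interval measured 573 bases at 27440581 to 27441153, and no group of 5 or more peaks was found. The gene order places the smaller run of histone genes, H2BC11 to H2AC12, among the genes between the main runs, but whether the peak of 2400 bases lies there was not tested. Without that group of 3 the windows had 7.05 times the peak density of the interval and 16.9 times its coverage, settings chosen after the values were seen.

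Placements outside both windows were also compared by width. Of 1201 placements of 300 kb with 10 or more UTX peaks, 4 had a median width of at least 865 bases, all of them on chromosome 7. For the second window, 54 of 179 placements of 150 kb with 10 or more peaks had a median width of at least 445 bases, on 12 chromosomes. The list held 140 groups of 5 or more UTX peaks joined across 10 kb, of which 78 (55.7%) held no TAL1. The 2 groups of the windows were among these 78, so a dense group without TAL1 was common in the list.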

How the data were processed

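The deposited files are 2 peak lists of 3 columns, the chromosome, start (counted from 0) and end of each peak. Per the submitters' processing notes, hg19 was the build, and the tools were BWA 0.6.2, SAMtools 0.1.18 and MACS2 2.0.10. The threshold, any use of the mock library and the making of the TAL1 list were not given in the sources used here. No score, count or signal stands in the deposited lists. Positions are printed counted from 1. The build of the TAL1 list is unstated and was taken as hg19; 2163 of its 2678 peaks share a base with the UTX list, and every TAL1 overlap and distance rests on this.

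A UTX peak held TAL1 if they shared at least 1 base. Gaps were counted edge to edge, and UTX peaks with gaps of up to 10 kb formed a group. Density, width, spacing and distance were computed in Python 3.11.15 with numpy 2.4.6, pandas 2.3.3 and scipy 1.17.1, and overlap, distance and joining were checked on simulated data. Chromosome 6 was measured from the first to the last peak of either list. Named peaks are the first, last, narrowest, 5 widest and all over 1 kb of each window, the largest group and the peaks beside each edge. Members, gene lists and motifs were chosen with earlier results of these data known. RefSeq tables (GRCh38.p14) gave gene order and promoters only; the planned protein comparison and the regulators of histone genes are not reported.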

Additional observations from a re-analysis of the deposited data

How the results depend on the processing

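Of 23 values computed under other settings, 16 stayed near the main value (counts within 1.5 times, other values within their 95% interval) and 7 did not; the cause was not tested beyond what each setting changes by construction. The density ratio of the windows over the interval, 6.15, was 16.8 against the rest of chromosome 6, 11 with the wider 50% of the UTX peaks, 11.1 as bases covered and, chosen after the data were seen, 16.9 as bases covered without the group around the widest peak of the interval. It was 4.45 when peaks were joined across 1 kb. The largest group held 6 peaks when joined across 5 kb and 12 across 20 kb, against 11. The median width, 732 bases, was 445 in the second window alone and 1080 for stretches joined across 1 kb. The share of members with TAL1 was 0% in all 4 other settings, which are among the 16. No other value was possible there, because the TAL1 peak closest to any member lay 74.2 kb away. No paired analysis was possible because UTX and the mock have 1 library each. Peak positions carry no depth, so weak binding below either threshold is not seen.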
